A study of Mus musculus with 5 samples.

Results

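The genes described here are surface and matrix markers of fibroblasts, the cells that formed the feeder layer under the embryonic stem cells of this study. The list named 10 genes: Lum, Dcn, Postn, Thy1, Fbn1, Fn1, Pdgfrb, Fbln2, Lox and Loxl1. A probe set counted for a gene when it was annotated with that gene's symbol and no other, and the brightest probe set by its mean over the 5 arrays stood for the gene. In this way 9 of the 10 genes, with 16 probe sets in all, were found among 18193 measured genes; Fbn1, a microfibril gene, was not analysed here. The list was taken as a gauge of how much feeder RNA each array held.

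RNA came from E14 mouse embryonic stem cells, kept on mouse embryo fibroblasts with 14% serum replacement, 1% fetal bovine serum and leukaemia inhibitory factor at 100 units/ml. The 2 groups were wild type (WT, 2 Affymetrix arrays) and cells homozygous for a mutation of Trip12 (Trip12 mut/mut, 3 arrays), each array being labelled a biological replicate and numbered here as in its label (mutant 1, 2 and 3). The Trip12 protein is an E3 ubiquitin ligase of the HECT class. What the mutation is, how many clones or cultures the arrays stand for, and whether feeder cells were taken away before RNA extraction was not stated in the labels, so p-values measure only the spread between these arrays, which may be technical. Values are log2 RMA values, and a difference is the Trip12 mut/mut mean less the WT mean.

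Feeder layers support embryonic stem cells with attachment and secreted factors, and fibroblasts build an extracellular matrix that undifferentiated stem cells make in smaller amounts. Small leucine-rich proteoglycans bind collagen and control the width of its fibrils, fibronectin and periostin link matrix to cells and to collagen, fibulins join elastic fibres and basement membranes, and lysyl oxidases crosslink collagen and elastin. Thy1 and the PDGF receptor beta sit on the surface of mesenchymal cells. In bulk RNA, a larger number of feeder cells and more of these transcripts per cell cannot be told apart. No array of feeder cells alone was used here, so the values compare arrays and give no share of feeder RNA.

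The array labelled mutant 1 stood with the WT arrays and apart from the other 2 mutant arrays. Over 45037 probe sets the 2 WT arrays differed with an SD of 0.123, and the array labelled mutant 1 differed from them with SDs of 0.123 and 0.124. No probe set differed by more than 2-fold in these pairs, against 293 to 545 between a WT array and mutant array 2 or 3. The Trip12 probe set with the highest mean read 10.17 and 10.25 in WT, 10.18 on the array labelled mutant 1, and 12.09 and 12.57 on mutant arrays 2 and 3, so by this probe set the array stands with WT. The 7 Trip12 probe sets did not share a direction: 4 were above both WT arrays on both mutant arrays 2 and 3, 2 dim ones were neither above nor below, and 1 was below, with 6.11 and 6.10 in WT, 6.11 on the array labelled mutant 1, and 5.69 and 5.24 on mutant arrays 2 and 3. The labels do not say where the probe sets lie on the mutated gene. All 19 measured stem cell markers lay above 5.52, the median of all probe sets, on all 5 arrays, and so did the 9 feeder markers. The mean of 11560 of 18193 genes reached that median, so this does not identify a cell type. Since the array labelled mutant 1 stood with WT, results are given with all 5 arrays and also without it. That array was left out for its values, so p-values without it are too favourable.

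Across the 9 markers, levels were alike on the WT arrays and the array labelled mutant 1. They were higher on mutant arrays 2 and 3 for every marker except Lum. For Thy1 the margin on mutant array 2 was small, at 9.72 against 9.69 on WT replicate 2. Averaged over the 9, the level was 11.03 and 11.05 on the WT arrays, 11.02 on the array labelled mutant 1, 11.47 on mutant array 2 and 11.51 on mutant array 3. On mutant array 2 the 9 differences from the WT mean ran from -0.31 to 0.80 with a median of 0.56, a 1.47-fold level. On mutant array 3 they ran from 0.25 to 0.65 with a median of 0.49, a 1.41-fold level. Over all genes the corresponding medians were 0.03 and 0. On the array labelled mutant 1 the 9 markers lay between -0.14 and 0.04 of the WT mean.

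Mutant arrays 2 and 3 both lay above both WT arrays for 8 of the 9 markers, a pattern that 26.7% of all genes showed. Both lay below for 0 of 9, against 17.5% of all genes. Of the 11560 genes whose mean reached the median of all probe sets, as that of each marker did, 4051 were above and 2537 below. With the array labelled mutant 1 included, the groups were separate for 1 marker only, Thy1, with the mutant arrays higher, against 5.73% of all genes. That array exceeded the higher WT array for Thy1 by a small margin (9.70 against 9.69), and after the array medians were centred the number was 0.

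**Figure D1:**
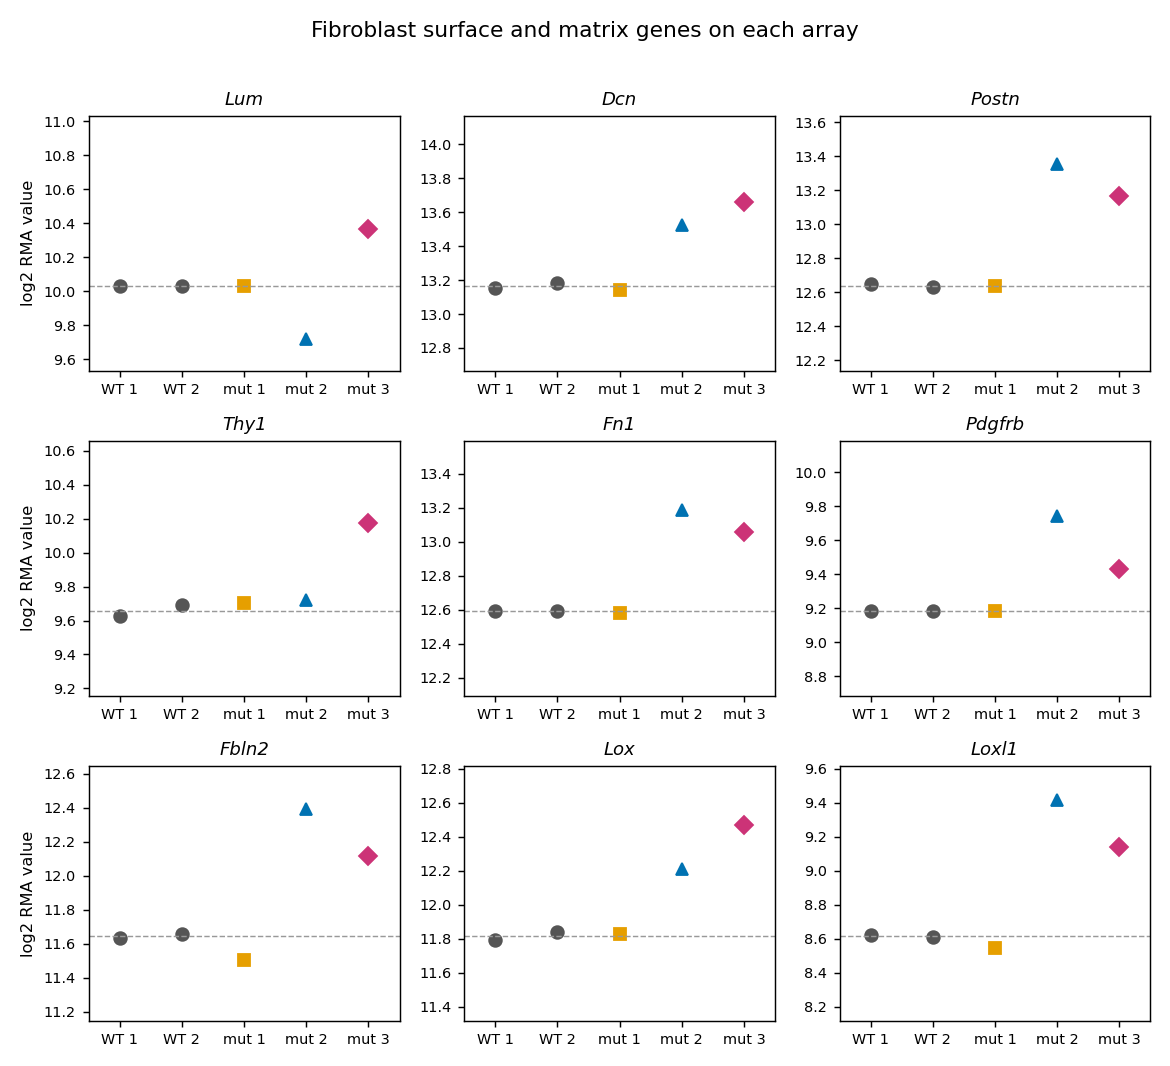
Log2 RMA value of each of the 9 measured feeder markers on each array, with WT replicates 1 and 2 as grey circles and Trip12 mut/mut replicates 1, 2 and 3 as a square, a triangle and a diamond. The dashed line is the WT mean, and each panel spans the same height; the array labelled mutant 1 sits at or near the line in each panel, mutant array 3 above it in each, and mutant array 2 above it in each except that of Lum.

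Lum and Dcn encode lumican and decorin, 2 small leucine-rich proteoglycans whose genes neighbour each other on chromosome 10. Lum read 10.03, with equal deposited values, on both WT arrays and on the array labelled mutant 1, 9.72 on mutant array 2 and 10.37 on mutant array 3. The mutant arrays thus lay on both sides of WT, at 0.805-fold and 1.26-fold of the WT mean. Its difference was 0.01 with an SE of 0.20 over all 5 arrays (limma, adjusted p = 1.0), and 0.01 with an SE of 0.26 without the array labelled mutant 1. Dcn read 13.15 and 13.18 in WT, 13.14 on the array labelled mutant 1, 13.52 on mutant array 2 and 13.66 on mutant array 3. Both of these arrays were above WT, at 1.28-fold and 1.41-fold of the WT mean. A dimmer Dcn probe set, which averaged 5.59 in WT, gave 1.58-fold and 1.83-fold of its WT level on those arrays. On mutant array 2, then, the 2 neighbouring genes differed from WT in opposite directions.

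Of the adhesive matrix genes, Fn1 encodes fibronectin, which binds integrins and collagen, and Postn encodes periostin, a matricellular protein of connective tissue. Fn1 read 12.59 on both WT arrays, 12.58 on the array labelled mutant 1, 13.19 on mutant array 2 and 13.06 on mutant array 3. Postn read 12.64 and 12.63 in WT, 12.63 on the array labelled mutant 1, 13.35 on mutant array 2 and 13.16 on mutant array 3. For both genes the first 3 arrays lay within 0.02 of each other, and the last 2 were above them, with mutant array 2 the higher. Without the array labelled mutant 1 the difference of Postn was 0.62 with an SE of 0.08 (limma, adjusted p = 0.0883), and that of Fn1 was 0.53 with an SE of 0.06 (adjusted p = 0.0834). Over all 5 arrays they were 0.41 with an SE of 0.23 and 0.35 with an SE of 0.20 (adjusted p = 0.748 for each). A second Fn1 probe set with a WT mean of 9.44 was further apart on the same arrays, at 1.79-fold on mutant array 2 and 1.28-fold on mutant array 3.

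Postn and Fbln2 were among the 5 markers with their highest value on mutant array 2, and the sequences before their starts are given to show what these promoters hold. RefSeq promoters of assembly GRCm38.p6 were matched for 3 of the 10 genes (Postn, Fbln2 and Fbn1). Each line holds the 250 bases before an annotated start, on the plus strand, with 2 starts for Postn; capitals mark a TATA box.
Postn first start, chr3:54359017-54359266: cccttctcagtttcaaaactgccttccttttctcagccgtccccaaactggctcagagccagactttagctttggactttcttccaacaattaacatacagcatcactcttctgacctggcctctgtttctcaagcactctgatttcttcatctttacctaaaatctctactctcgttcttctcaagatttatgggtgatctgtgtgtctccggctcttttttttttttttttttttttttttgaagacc
Postn second start, chr3:54360857-54361106: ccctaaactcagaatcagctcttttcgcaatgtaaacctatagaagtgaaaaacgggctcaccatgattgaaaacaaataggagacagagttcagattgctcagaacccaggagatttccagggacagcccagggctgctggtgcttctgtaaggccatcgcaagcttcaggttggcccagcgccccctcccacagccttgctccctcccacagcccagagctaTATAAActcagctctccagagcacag
Fbln2, chr6:91212514-91212763: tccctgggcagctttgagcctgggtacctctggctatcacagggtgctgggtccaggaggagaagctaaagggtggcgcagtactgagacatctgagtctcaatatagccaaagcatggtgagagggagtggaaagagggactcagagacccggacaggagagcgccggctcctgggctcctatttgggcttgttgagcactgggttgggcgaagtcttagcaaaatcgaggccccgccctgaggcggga
The motifs searched, on both strands, were TATAAA (the TATA box), TGANTCA (AP-1), CCAAT (the CCAAT box) and GGAATG (TEAD). No matches overlapped. The only match was TATAAA, beginning 26 bases before the second Postn start. Of 32851 promoter windows of this length, 12.4% held TATAAA, 6.75% TGANTCA, 33.8% CCAAT and 12.6% GGAATG. Which start the cells used was not measured by the arrays.

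Fbln2 encodes fibulin-2, a glycoprotein of elastic fibres and basement membranes that binds fibronectin. It read 11.64 and 11.66 in WT, 11.51 on the array labelled mutant 1, 12.40 on mutant array 2 and 12.11 on mutant array 3. It was the marker for which the array labelled mutant 1 lay furthest from WT, at 0.908-fold, while mutant arrays 2 and 3 were at 1.68-fold and 1.38-fold. The mutant arrays therefore lay on both sides of WT. The difference was 0.36 with an SE of 0.28 over all 5 arrays (limma, adjusted p = 0.748) and 0.61 with an SE of 0.12 without that array (adjusted p = 0.123). The other Fbln2 probe set, which lay below the median of all probe sets on every array, read 5.11 and 5.01 in WT, 4.88 on the array labelled mutant 1, and 5.41 and 5.28 on mutant arrays 2 and 3. Here too the array labelled mutant 1 was the lowest and mutant array 2 the highest.

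Lox and Loxl1 encode lysyl oxidase, which crosslinks collagen and elastin, and its relative lysyl oxidase like 1, which acts in elastic fibre assembly. Lox read 11.79 and 11.84 in WT, 11.83 on the array labelled mutant 1, 12.21 on mutant array 2 and 12.47 on mutant array 3. Loxl1 read 8.62 and 8.61 in WT, 8.55 on the array labelled mutant 1, 9.42 on mutant array 2 and 9.14 on mutant array 3. Both enzymes were above WT on mutant arrays 2 and 3, Lox more so on mutant array 3 and Loxl1 more so on mutant array 2. Loxl1 on mutant array 2, at 1.74-fold of the WT mean, was the largest positive difference from WT among the chosen probe sets of the 9 markers on any array. Without the array labelled mutant 1 its difference was 0.66 with an SE of 0.12 (limma, adjusted p = 0.111), against 0.42 with an SE of 0.28 over all 5 arrays (adjusted p = 0.748). For Lox the values were 0.52 with an SE of 0.11 (adjusted p = 0.141) and 0.35 with an SE of 0.20 (adjusted p = 0.748).

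The probe sets of these 2 enzymes did not give a single size of difference. A second Lox probe set, at 10.87 in WT, read 1.90-fold on mutant array 2 and 1.85-fold on mutant array 3, larger than the 1.31-fold and 1.57-fold of the chosen one and with no clear order of the 2 arrays. Another, dim Lox probe set, at 4.15 in WT, read 1.22-fold and 1.23-fold. The second Loxl1 probe set read 5.91 on both WT arrays and on the array labelled mutant 1, 5.86 on mutant array 2 and 6.35 on mutant array 3. It was thus the only one of the 7 other probe sets of the markers without both mutant arrays 2 and 3 above both WT arrays.

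Of the surface markers, Thy1 encodes a glycolipid-anchored glycoprotein of fibroblasts, neurons and T cells, and Pdgfrb a receptor tyrosine kinase for PDGF in mesenchymal cells. Thy1 read 9.62 and 9.69 in WT, 9.70 on the array labelled mutant 1, 9.72 on mutant array 2 and 10.17 on mutant array 3. The first 4 arrays lay close together, and only mutant array 3 was clearly higher, at 1.43-fold of the WT mean against 1.04-fold for mutant array 2. Its difference was 0.21 with an SE of 0.17 over all 5 arrays (limma, adjusted p = 0.748) and 0.29 with an SE of 0.18 without the array labelled mutant 1 (adjusted p = 0.505). Pdgfrb read 9.19 and 9.18 in WT, 9.19 on the array labelled mutant 1, 9.74 on mutant array 2 and 9.43 on mutant array 3. Its order was the reverse of that of Thy1, with mutant array 2 the higher, at 1.47-fold against 1.19-fold. The second Pdgfrb probe set, with a WT mean of 7.15, had mutant array 3 the higher, at 1.27-fold against 1.13-fold. Over all 5 arrays the Pdgfrb difference was 0.27 with an SE of 0.18 (limma, adjusted p = 0.748), and without the array labelled mutant 1 it was 0.40 with an SE of 0.13 (adjusted p = 0.235).

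**Figure D2:**
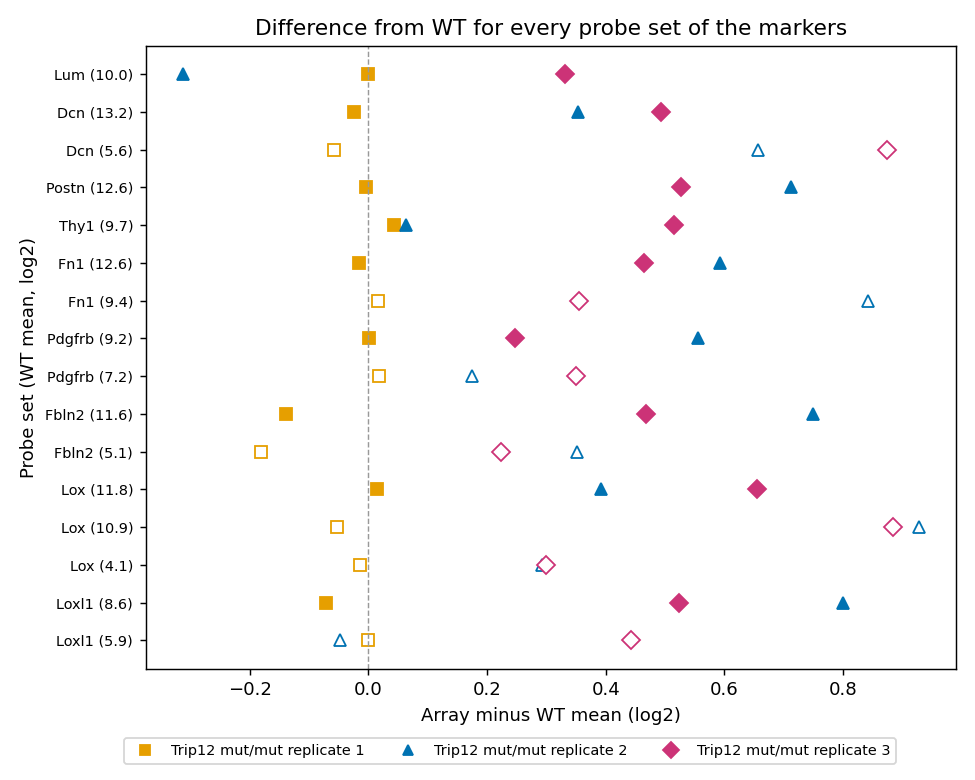
Difference from the WT mean (log2) of each Trip12 mut/mut array for all 16 probe sets of the 9 markers, with the WT mean of each probe set in brackets. Filled symbols are the chosen probe sets and open symbols the others; squares (replicate 1) lie between -0.18 and 0.04, and the triangles (replicate 2) and diamonds (replicate 3) lie to the right except for Lum and the dimmer Loxl1 probe set on mutant array 2.

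The markers did not share a single difference on mutant arrays 2 and 3. Of the 9, 5 were higher on mutant array 2 than on mutant array 3 (Postn, Fn1, Pdgfrb, Fbln2 and Loxl1, by 0.13 to 0.31), and 4 were higher on mutant array 3 (Lum, Dcn, Thy1 and Lox, by up to 0.65 for Lum). The SD of the difference between these arrays was 0.35 over the 9 markers and 0.28 over the 11560 genes whose mean reached the median of all probe sets. Between the 2 WT arrays the corresponding SDs were 0.03 and 0.09. Mutant arrays 2 and 3 therefore differed from each other for these genes by more than the WT arrays did, and ordering the 2 by a single marker gave either order. Their means over the 9 markers, 11.47 and 11.51, were close.

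**Figure D3:**
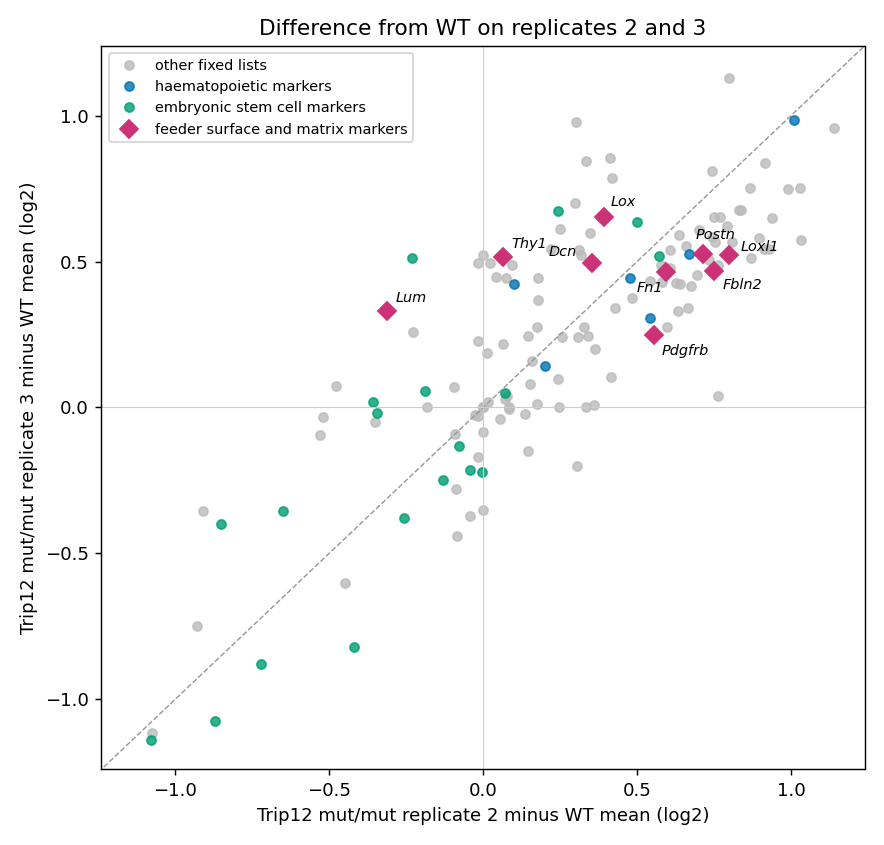
Difference from the WT mean (log2) on Trip12 mut/mut replicate 2 (horizontal axis) and mutant array 3 (vertical axis), 1 point per gene. Diamonds are the 9 feeder markers, green points the embryonic stem cell markers, blue points the haematopoietic markers and grey points the genes of the other lists; along the dashed line both arrays differ equally from WT, and Lum, Thy1, Lox and Dcn lie above it.

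In the test across all genes, 0 of the 9 markers passed a threshold of 0.05 on the adjusted p over all 5 arrays (limma), where 0% of all genes were called. At an unadjusted p of 0.05 the count was also 0 of 9, against 1.18% of all genes. The median difference of the 9 was 0.35, against 0.02 for all genes, and it was 0.23 without mutant array 2. Without the array labelled mutant 1 the median was 0.52, again 0 of 9 passed and 0% of 18193 genes were called. Below an unadjusted 0.05 there were 7 of the 9, against 20.5% of all genes in either direction. With dim probe sets also removed, 0 of 9 passed, where 3.29% of 11626 genes were called higher and 1.34% lower. Below an unadjusted 0.05 there were again 7 of 9, against 28.8% of those genes. All 9 chosen probe sets lay above the median of all probe sets on every array, so none entered that comparison only through its higher group. The smallest adjusted p there was 0.0527, for Fn1 and for Postn, and the largest was 0.987, for Lum. No marker differed by 2-fold on any array.

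The size of the differences depended on which mutant arrays were kept. Leaving out the array with the highest value always lowers a group mean, so a smaller difference was fixed in advance. Its size was partly fixed too, because the array labelled mutant 1 stood near WT for these markers. Without mutant array 2 the difference went from 0.41 to 0.26 for Postn, from 0.35 to 0.22 for Fn1, from 0.27 to 0.12 for Pdgfrb, from 0.36 to 0.16 for Fbln2 and from 0.42 to 0.23 for Loxl1. Without mutant array 3 it went from 0.27 to 0.17 for Dcn, from 0.21 to 0.05 for Thy1 and from 0.35 to 0.20 for Lox. Each of the 8 markers other than Lum thus had a difference more than 1.5 times smaller without the mutant array on which it was highest. Leaving out a WT array moved none of the 8 by that much. The WT arrays differed by at most 0.07 for the 9 markers, so little movement was possible there.

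Other genes of the fibroblast matrix were read from lists of their own. In the comparison over all 5 arrays 0 genes of any list passed in limma, so genes said to have risen or fallen did so in the comparison without the array labelled mutant 1 and with dim probe sets removed. There 24 list genes passed, with adjusted p-values between 0.0402 and 0.0497 (limma), and 0 passed without that array when dim probe sets were kept. Of all genes tested there, 3.29% were called higher and 1.34% lower. Over all 18193 genes, 26.7% were above both WT arrays on both mutant arrays 2 and 3 and 17.5% below. The counts for each list are to be read beside these shares. Of 12 measured genes that mature and crosslink collagen, 10 were above both WT arrays on both mutant arrays 2 and 3 and 0 below; the median difference was 0.37 over all 5 arrays and 0.56 without the array labelled mutant 1. Loxl3, a further lysyl oxidase, the lysyl hydroxylases Plod1 and Plod2 and the prolyl hydroxylase P4ha2 rose, 4 of 10 tested. Plod2 read 11.27 and 11.25 in WT, 11.23 on the array labelled mutant 1, and 12.13 and 12.01 on mutant arrays 2 and 3. Pcolce, an enhancer of procollagen processing, differed by 0.35 and 0.60 on these 2 arrays and did not pass (adjusted p = 0.0887).

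The interstitial collagens and the adhesive matrix genes had medians close to that of the 9 markers. Of 9 collagens 7 were above both WT arrays on mutant arrays 2 and 3, with a median of 0.54 (the array labelled mutant 1 left out), and Col1a2, Col5a1 and Col5a2 rose. Col1a2, a chain of type I collagen, read 12.47 and 12.53 in WT, 12.49 on the array labelled mutant 1, and 13.16 and 13.05 on mutant arrays 2 and 3. Col3a1 differed by 0.63 and 0.43 on those arrays (limma, adjusted p = 0.0658). Of 13 adhesive and matricellular genes 8 were above both WT arrays on both mutant arrays 2 and 3, with a median of 0.53, and the thrombospondins Thbs1 and Thbs2, Sparc and Ecm1 rose, 4 of 11 tested. Tnc, which encodes tenascin-C, differed by 0.67 and 0.42 and did not pass (adjusted p = 0.0739).

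Relatives of lumican, decorin and the fibulins formed the next lists. Of the 10 other small leucine-rich proteoglycan genes, 8 lay below the median of all probe sets on every array, and the median difference without the array labelled mutant 1 was 0.03. Bgn, which encodes biglycan, read 12.57 and 12.54 in WT, 12.55 on the array labelled mutant 1, 13.22 on mutant array 2 and 12.89 on mutant array 3. Podn differed by 0.06 and -0.04 on the last 2 arrays, and Prelp, a dim one, by 0 and -0.08. Of 14 elastic fibre and microfibril genes 8 were above both WT arrays on both mutant arrays 2 and 3 and 2 below, with a median of 0.26. Ltbp1, a latent TGF-beta binding protein, and Emilin1 rose, 2 of 13 tested. Mfap5, Ltbp2 and Ltbp3 differed by 0.18 to 0.52 on mutant arrays 2 and 3 and did not pass. The 2 below were Efemp1, which differed by -0.91 and -0.35, and Ltbp4, by -0.53 and -0.09. Fbln5 differed by 0.42 and 0.79 and Fbln1 by 0.01 and 0.19.

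Beside Thy1 and Pdgfrb, 16 other mesenchymal surface genes were measured. Without the array labelled mutant 1 their median was 0.34. On both mutant arrays 2 and 3, 11 were above both WT arrays and 1 below, Nt5e, which differed by -0.45 and -0.60. Vcam1, an adhesion molecule, was the 1 of 15 tested that rose. Pdgfra, the sister receptor of Pdgfrb, read 9.04 on both WT arrays, 8.98 on the array labelled mutant 1, 8.81 on mutant array 2 and 9.30 on mutant array 3. It lay below WT on mutant array 2 and above on mutant array 3, as Lum did. Cd44, a hyaluronan receptor, differed by 0.64 and 0.42, Pdpn, which encodes podoplanin, by 0.30 and 0.70, and the receptor kinase Axl by 0.94 and 0.65. Of 10 ligands and receptors of PDGF and TGF-beta, 7 were above both WT arrays on both mutant arrays 2 and 3 and 1 below, with a median of 0.51. Pdgfa, which encodes a PDGF chain, was the 1 of 9 tested that rose, with 8.96 and 8.99 in WT, 8.94 on the array labelled mutant 1, and 9.96 and 9.72 on mutant arrays 2 and 3. The TGF-beta receptors Tgfbr2 and Tgfbr3 differed by 0.54 to 0.93 and did not pass.

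Genes of the contractile myofibroblast lay on both sides of WT. Of 7 measured, 3 were above both WT arrays on mutant arrays 2 and 3 and 1 below, the median being 0.11 without the array labelled mutant 1. Acta2, smooth muscle actin, differed by 0.76 and 0.49 (limma, adjusted p = 0.0694), Tpm2, a tropomyosin, by 0.54 and 0.43, and Tagln, which encodes transgelin, by -0.02 and 0.23. Cnn1, a calponin, fell, from 6.65 and 6.59 in WT and 6.62 on the array labelled mutant 1 to 5.54 and 5.51.

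Markers of other cells also differed on the same arrays. All 6 haematopoietic markers were above both WT arrays on mutant arrays 2 and 3, with a median of 0.44, and Cd68 and Ptprc rose, 2 of 5 tested. Cd68, a macrophage glycoprotein, read 9.08 and 9.20 in WT, 9.16 on the array labelled mutant 1, and 10.15 and 10.12 on mutant arrays 2 and 3. The leukocyte phosphatase Ptprc read 7.31 on both WT arrays, 7.25 on the array labelled mutant 1, and 7.79 and 7.75 on mutant arrays 2 and 3. Csf1r, a receptor of macrophages, and Lyz2, their lysozyme, differed by 0.31 to 0.67 on mutant arrays 2 and 3. Summed over the 6, the unlogged value came to 6281 and 6298 in WT, 6208 on the array labelled mutant 1, 9399 on mutant array 2 and 8371 on mutant array 3; Aif1 lay below the median of all probe sets on every array, and the other 5 did not. The part of these cells in the differences of the 9 markers was not tested.

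Endothelial markers were dimmer, with 3 of 6 below that median on every array, among them Cdh5 and Emcn. Their summed unlogged value was 341 to 357 on the WT arrays and the array labelled mutant 1. It was 418 on mutant array 2 and 406 on mutant array 3. On both of the last 2 arrays 2 of 6 were above both WT arrays, near the 26.7% of all genes, and 1 was below. Tek differed by 0.30 and 0.98, Kdr by 0.76 and 0.04 and Esam by -0.09 and -0.28. Of 12 extraembryonic endoderm markers, a differentiated lineage that makes matrix too, 6 were above both WT arrays on both mutant arrays 2 and 3 and 2 below, with a median of 0.24 and a summed unlogged value of 3987 to 4095 on the WT arrays and the array labelled mutant 1, 5631 on mutant array 2 and 5188 on mutant array 3. Col4a1 and Col4a2, the basement membrane collagens, rose, 2 of 8 tested; fibroblasts express both. Lamb1 differed by 0.36 and 0.20. These 3 genes had the highest means of the list and so weigh most in its summed value. On mutant arrays 2 and 3 Dab2 differed by 0.69 and 0.45, Lama1 by 0.25 and 0.61 and Afp by 0.07 and 0.44. Ttr differed by 0.084 and -0.0042, Foxa2 by -0.93 and -0.75 and Sox17 by -0.08 and -0.44. Gata4 and Sox7 differed by 0 on both arrays, and Gata6 by 0.18 and 0.28. Of the 12, 3 lay below the median of all probe sets on every array, namely Gata4, Sox17 and Afp. Sox7 read 5.54 on all 5 arrays and Foxa2 5.22 and 5.70 in WT, near that median of 5.52. The differences of 0 come from tied values at these levels and do not show that a gene was unchanged. The part of either cell type in the result was not tested.

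More embryonic stem cell markers lay below WT than above it on the same arrays. Of 19 measured, 11 were below both WT arrays on both mutant arrays 2 and 3 and 4 above, and the median difference was -0.10 over all 5 arrays and -0.17 without the array labelled mutant 1. They averaged 10.98 and 10.99 in WT, 10.98 on the array labelled mutant 1, and 10.73 and 10.80 on mutant arrays 2 and 3. The epithelial adhesion gene Epcam, Lin28a and Utf1 fell and Tcl1 rose. Esrrb differed by 0.50 and 0.63 on mutant arrays 2 and 3, and Tfcp2l1 by 0.24 and 0.67. Pou5f1 differed by -0.04 and -0.22, Nanog by -0.36 and 0.02, and Sox2 by -0.34 and -0.02. Of the 3 markers with the highest means, Dppa5a differed by 0.07 and 0.05 on mutant arrays 2 and 3, Tdgf1 by -0.08 and -0.13, and L1td1 by -0.85 and -0.40. The differences were thus uneven among stem cell markers, as they were among the 9 feeder markers.

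**Figure D4:**
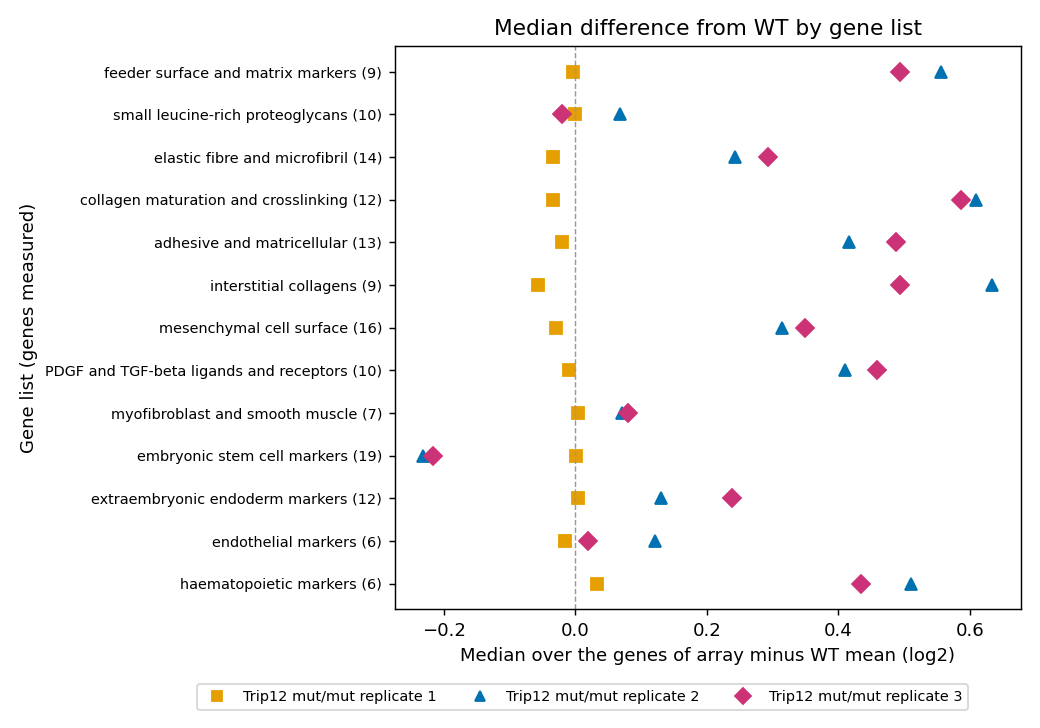
Median over the measured genes of each list of the difference from the WT mean (log2), for Trip12 mut/mut replicate 1 (squares), mutant array 2 (triangles) and mutant array 3 (diamonds), with the number of genes in brackets. The 9 feeder markers stand at 0.56 and 0.49 on mutant arrays 2 and 3, near the collagen lists and the haematopoietic markers, while the embryonic stem cell markers stand at -0.23 and -0.22.

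Profiles like that of the 9 markers were found in genes of other kinds. The profile of each gene over the 5 arrays was centred on its own mean and compared with the centred mean of the 9 by the root mean square distance. Among 11551 other genes whose mean reached the median of all probe sets, the nearest was Pfkp, a phosphofructokinase, at 0.014, with 11.30 and 11.33 in WT, 11.30 on the array labelled mutant 1, and 11.77 and 11.81 on mutant arrays 2 and 3. Rbm43, Gabarapl2, Klf6 and Tlcd3a followed, at 0.016 to 0.021. Of the 9 markers themselves, Dcn lay nearest to their mean profile, at 0.036, and Lum farthest, at 0.29. With 5 arrays, of which 3 are alike, many genes can share such a profile.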

How the data were processed

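Transcript levels were measured on 5 Affymetrix arrays. The authors deposited log2 values, 1 per probe set and array, made with RMA per the submitters' processing notes; no version is stated there. RMA normalises the arrays to a shared distribution, so a shift shared by all transcripts cannot be seen. It gives no detection call, and probe sets can hold tied values, as that of Lum does on 3 arrays. Precision is limited by the number of arrays.

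Of 45101 probe sets 64 controls were left out; 34945 of the rest had 1 gene symbol, 932 several and 9160 none, and 34741 symbols were brought up to date by their gene numbers (RefSeq table, assembly GRCm38.p6). A gene was read from its probe set with the highest mean. All 18193 genes were fitted with limma 3.58.1 under R 4.3.3 (functions lmFit and eBayes; a two-sided test of genotype alone) with Benjamini-Hochberg adjustment over all genes and a threshold of 0.05. The filter on dim probe sets kept genes with at least 2 arrays reaching 5.52, the median over probe sets. The fit over all 5 arrays was also run on simulated data. There 86 of 100 genes changed by 2 and 59 of 100 changed by 1 (log2) were recovered, with 9 false calls over 18193 genes. In the measured data the array labelled mutant 1 stood with WT, and this fit called 0 genes (limma, smallest adjusted p = 0.748). The recovery in simulated data therefore does not show what the fit can recover from these arrays.

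The 10 markers, the 12 other lists (140 genes, 134 measured) and the tests were chosen with earlier results of these data known. Named genes were all markers on every array, the 3 genes with the highest mean in each list, genes that passed, Trip12, and the 5 genes nearest in profile. Pdgfra, Emcn, Cdh5, Aif1, Epcam, Lin28a, Utf1, Tcl1, Cnn1, Ptprc and other genes passing only in the filtered comparison were named after their values were seen. So were Gata6, Gata4, Sox17, Sox7, Foxa2, Esrrb, Tfcp2l1, Pou5f1, Nanog and Sox2. Dab2, Lama1, Afp, Ttr, Efemp1, Ltbp4, Fbln1, Fbln5 and Nt5e were also named in this way. Alternatives were quantile normalisation, centred array medians, the dim filter, probe sets averaged per gene, its most variable probe set by SD, array weights, robust variances with a trend, a replicate block and each array left out. Python 3.11.15 with matplotlib 3.10.9 drew the figures.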

Additional observations from a re-analysis of the deposited data

How the results depend on the processing

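The 14 alternatives were not all separate checks of a difference. The dim filter, with or without the array labelled mutant 1, and the robust variances changed no marker's difference. The replicate block gave the same differences as leaving out mutant array 3. None of the 9 markers passed the adjusted threshold in any alternative, where the adjusted p ranged from 0.0527 to 1.0 (limma). The differences of the 8 markers other than Lum stayed positive in all 112 fits. Their sizes were less stable: besides the smaller values without mutant array 2 or 3 given above, Loxl1 was 0.27 with probe sets averaged, Dcn 0.49 and Lox 0.59 with the most variable probe set, and Dcn 0.17, Thy1 0.05 and Lox 0.20 with a replicate block, which leaves replicate 3 without a partner. The difference of Lum, 0.01 over all 5 arrays, turned to -0.0057 with quantile normalisation, -0.0073 with centred medians, -0.16 with a replicate block and -0.16 without Trip12 mut/mut replicate 3, and was 0.17 without replicate 2. The number of markers whose groups did not overlap, 1, was 0 with centred medians and between 1 and 8 with 1 array left out: 3 without WT replicate 1, 2 without WT replicate 2, 1 without Trip12 mut/mut replicate 2 or 3, and 8 without the array labelled mutant 1, also with dim probe sets removed. The median difference, 0.35, was 0.52 without that array and 0.23 without replicate 2. The number of genes of the other lists past the threshold was 0, and 24 without that array and with dim probe sets removed. With the replicate number as a block, 0 markers and 0 genes passed. The deviations of same-numbered arrays from their group means had correlations of -0.04 and -0.08. With 2 WT arrays these deviations mirror each other, so the correlations cannot show whether same-numbered arrays were handled together. Dim probe sets and the few arrays limit small differences.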
